A study of Caenorhabditis elegans with 2 samples.

Results

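The dod genes of Caenorhabditis elegans carry their name because their expression lies downstream of DAF-16, the forkhead (FOXO) transcription factor of the insulin-like pathway. The 8 described here, dod-3, dod-6, dod-17, dod-19, dod-20, dod-22, dod-23 and dod-24, were taken by symbol from a fixed list, and all 8 were found in the WBcel235 annotation, which holds 10 genes with a dod symbol among its 19973 nuclear protein-coding genes. DAF-16 was mapped by chromatin immunoprecipitation and sequencing with an antibody against GFP, in whole L4 hermaphrodites. They were of strain ZM8745 and were harvested 54 hours after a synchronizing starvation as L1 larvae. All animals carried the daf-16 allele mu86 and the daf-2 allele e1370, and a GFP fusion of DAF-16 expressed from the ges-1 promoter, which is active in the intestine, was their source of tagged protein. The labels place the GFP on different ends of DAF-16. Both samples, replicates 1 and 2, had the same genotype and treatment and formed 1 group. No test between groups could therefore be made, and binding in other tissues was not measured.

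When signalling through the insulin receptor DAF-2 is low, DAF-16 enters the nucleus and changes the expression of many genes. Those raised in daf-2 mutants and those lowered in them are usually treated as separate classes of target. Here dod-3 and dod-6 are known as raised, and dod-17, dod-19, dod-22 and dod-24 as lowered. The genes dod-20 and dod-23 were also counted as lowered, though this is known less surely. Each direction is background knowledge, since expression was not measured in these samples. The binding element of DAF-16 is TGTTTAC or TATTTAC. A separate element, TGATAAG, is called the DAF-16 associated element. It contains the core GATAA of sites for GATA factors, which govern intestinal genes, and it is known to be bound by PQM-1, a zinc finger protein often opposed to DAF-16. Of the lowered genes, dod-17, dod-22 and dod-24 are annotated as CUB-like domain proteins and are also known from responses to bacterial infection. RefSeq annotates dod-6 as a ShKT domain protein.

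The deposited data are lists of peaks, each with a summit and a signal. The lists for the genome build ce11, which is WBcel235, are an optimal list of 1489 entries, thresholded by how alike peaks rank in the replicates, a list of 30000 entries called on both replicates pooled, and lists of 28175 and 22676 entries for replicates 1 and 2. The last 3 hold peaks and background. An entry was assigned to a gene when its summit lay from 3000 bp upstream of the gene start to the gene end. Entries were ranked by signal within each list, with rank 1 the highest. Depth is unknown, as reads per peak were not part of the lists. The scale of the signal is not stated, so signals are compared only within a list. In the optimal list 25 entries were mitochondrial and the rest nuclear. All 1464 nuclear optimal entries were among the 1489 highest pooled entries. The optimal list is thus the top of the pooled list by signal, and the lists are not separate evidence. Of the genes whose sequence the transgene carries, daf-16 held an optimal entry at rank 484 in a window of this kind, and ges-1 had its highest pooled entry at rank 16197.

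The sequences under the results came from the RefSeq genome of WBcel235, and are given on the strand of the gene, 5′ to 3′. Capitals mark the associated element and both forms of the binding element, on either strand. On the opposite strand the associated element reads CTTATCA, the first form of the binding element reads GTAAACA and its other form reads GTAAATA. The first 3 lie at the genes whose highest entries came near the motifs. They are the 250 bp before the start of dod-3 (chrV:2731099-2731348, minus strand), the stretch from 787 to 606 bp before that of dod-6 (chrIII:10196929-10197110, plus strand) and the stretch from 1002 to 844 bp before that of dod-23 (chrII:8400008-8400166, minus strand). The next 2 are upstream stretches that hold motif matches at genes with no pooled entry: the 250 bp before dod-20 (chrV:422183-422432, plus strand) and the stretch from 565 to 340 bp before dod-22 (chrIV:12964809-12965034, plus strand). The last is the 101 bp around the highest pooled summit in dod-19 (chrV:412515-412615, minus strand), inside a coding exon.
dod-3: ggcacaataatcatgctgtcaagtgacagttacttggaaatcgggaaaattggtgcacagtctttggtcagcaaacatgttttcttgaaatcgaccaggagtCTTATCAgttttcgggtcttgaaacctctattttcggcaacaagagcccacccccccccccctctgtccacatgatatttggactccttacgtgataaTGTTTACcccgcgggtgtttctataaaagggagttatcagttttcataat
dod-6: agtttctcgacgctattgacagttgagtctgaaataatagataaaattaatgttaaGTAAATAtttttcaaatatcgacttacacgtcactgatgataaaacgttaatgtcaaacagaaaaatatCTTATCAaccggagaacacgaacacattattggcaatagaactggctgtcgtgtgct
dod-23: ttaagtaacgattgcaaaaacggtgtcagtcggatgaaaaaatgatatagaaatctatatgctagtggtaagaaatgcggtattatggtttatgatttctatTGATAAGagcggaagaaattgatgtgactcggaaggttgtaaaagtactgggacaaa
dod-20: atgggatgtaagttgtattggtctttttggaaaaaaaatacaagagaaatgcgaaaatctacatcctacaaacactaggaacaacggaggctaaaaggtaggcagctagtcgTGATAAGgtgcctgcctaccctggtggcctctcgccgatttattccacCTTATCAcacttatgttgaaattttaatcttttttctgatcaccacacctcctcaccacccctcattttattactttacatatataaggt
dod-22: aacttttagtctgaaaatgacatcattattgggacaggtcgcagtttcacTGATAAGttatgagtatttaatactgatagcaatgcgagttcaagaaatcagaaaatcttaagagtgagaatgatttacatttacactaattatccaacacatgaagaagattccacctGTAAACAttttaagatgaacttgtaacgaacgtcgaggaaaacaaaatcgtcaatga
dod-19: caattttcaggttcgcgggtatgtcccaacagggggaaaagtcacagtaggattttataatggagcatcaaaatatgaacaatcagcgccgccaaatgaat

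Of the 8 genes, dod-3 and dod-6 held an entry of the optimal list, where 8.24% of nuclear protein-coding genes did by the same rule. Both are the members known as raised in daf-2 mutants. Of the 6 known as lowered 0 held one, which at a share this low is near the background. Among the 13484 genes no longer than the longest member, a background chosen after the values were seen, the share was 6.46%. The pooled list had an entry at 4 of the 8, namely dod-3, dod-6, dod-19 and dod-23, against 68.9% of all genes, and at 2 of the 6 lowered genes. The same 4 genes were in both replicate lists, as were 56.1% of all genes. The replicate 1 list also held dod-24 and the replicate 2 list dod-20. Among the genes no longer than the longest member the pooled share was 62.6% and that of both replicate lists 47.9%. For dod-17 and dod-22 all 4 lists were empty, where 82.2% of all genes had an entry in at least 1 list. Among the genes no longer than the longest member that share was 77.5%. The members were few and the classes were not replicated, so the contrast between raised and lowered genes is a description with no test.

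**Figure D1:**
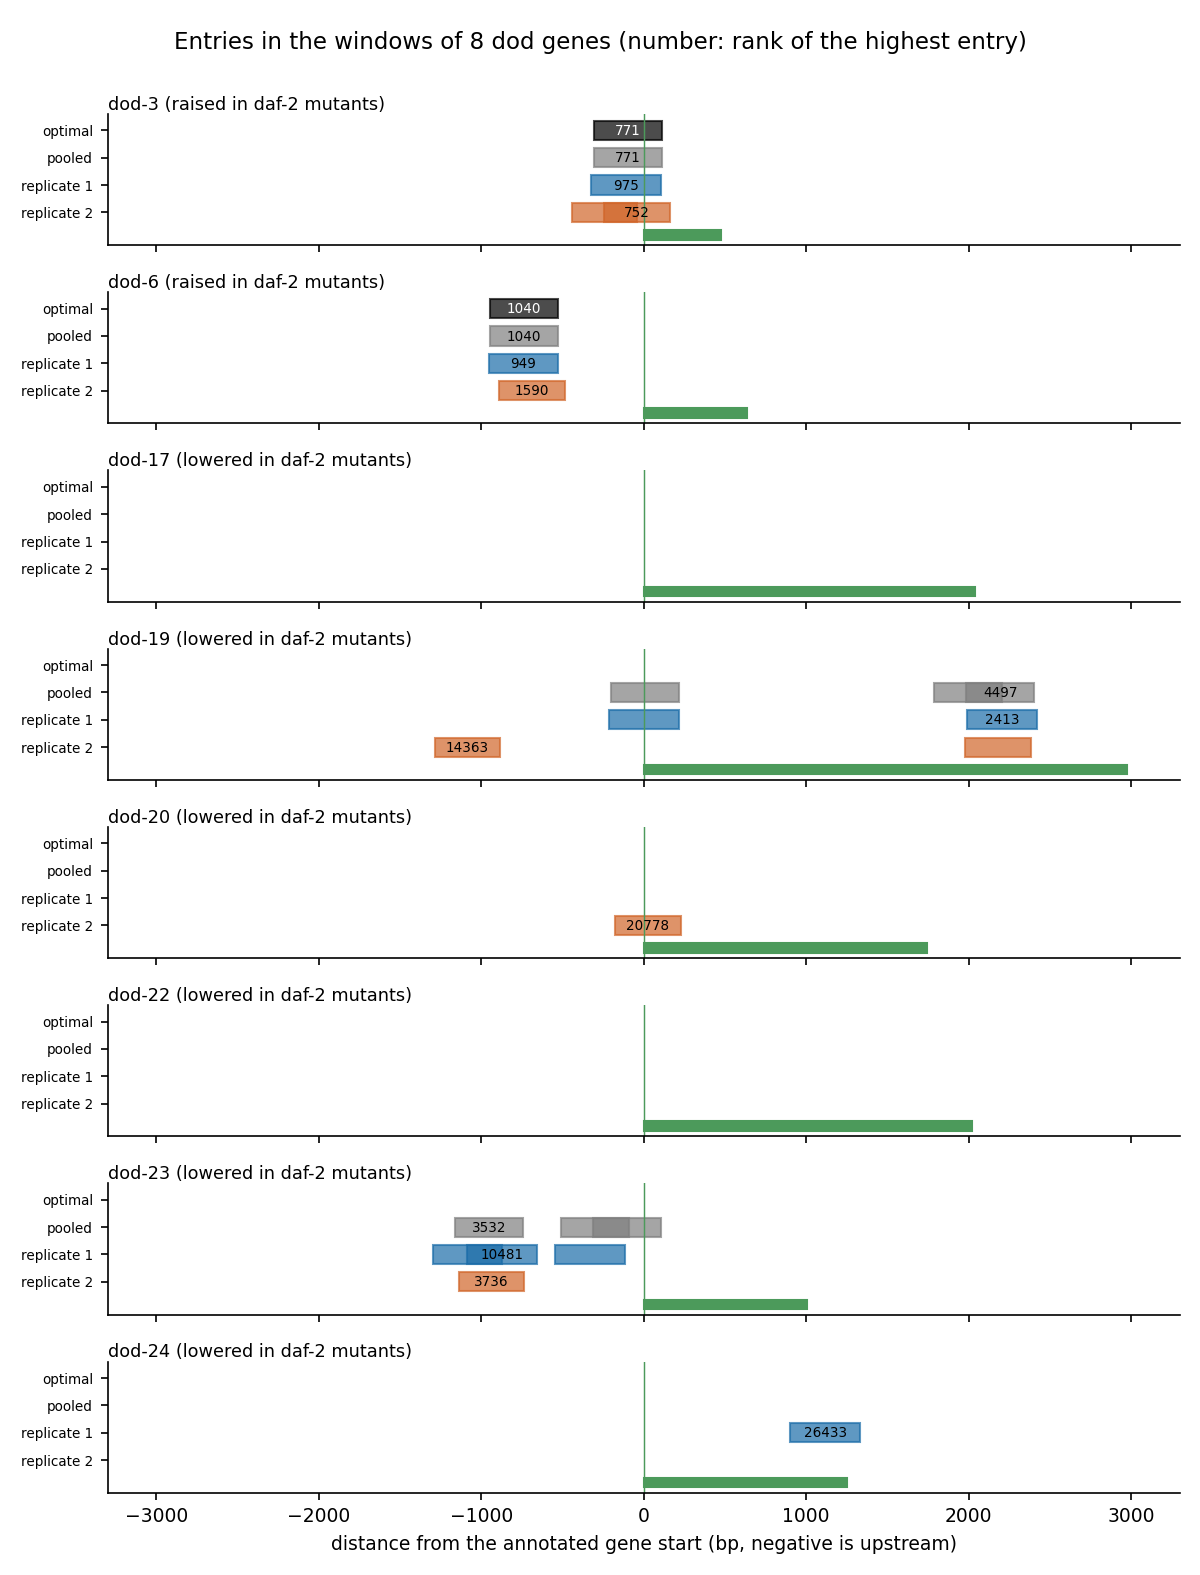
Entries of 4 peak lists in the windows of the 8 dod genes, by distance from the annotated gene start in bp, with negative values upstream. Coloured boxes are entries, 1 row per list, the green bar is the gene, and the number in a box is the rank of the highest entry of that list, from 752 at dod-3 in replicate 2 to 26433 at dod-24 in replicate 1. Black boxes, the optimal list, appear at dod-3 and dod-6.

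The gene dod-3 (C24B9.9, chrV:2730622-2731098, minus strand) is a short gene of 477 bp whose protein has no assigned function in the annotation. Its pooled and optimal entry, chrV:2730987-2731406, had a signal of 117.1 and rank 771. In the single replicates the highest entry had a signal of 60.8 and rank 975 in replicate 1, and a signal of 56.3 and rank 752 in replicate 2. Both ranks were thus within the 1489 highest of their list, as they were in both replicates for 5.86% of genes. The summit lay 99 bp upstream of the gene start in the pooled list, 109 bp in replicate 1 and 42 bp in replicate 2. Replicate 2 also held a second entry there, with its summit 241 bp upstream and rank 2558. Across the 1458 nuclear optimal entries with an overlapping entry in both replicate lists, replicate summits were a median of 31 bp apart, with quartiles of 13 and 65 bp. The 67 bp at dod-3 was thus wider than at most entries. No other gene was close, as the nearest, str-33 and srg-57, ended 954 and 980 bp from the summit, and both encode chemoreceptors. In the order of genes by their highest pooled entry, 869 genes stood above dod-3.

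In the printed dod-3 sequence, CTTATCA lies 148 to 142 bp before the gene start and TGTTTAC 50 to 44 bp before it. The replicate 1 summit was 36 bp from the middle of the first and 62 bp from that of the second. The replicate 2 summit was 103 bp from the first and 5 bp from the second. The highest summits of the replicates therefore lay nearest to different elements. The lower replicate 2 summit was 96 bp from the first and 194 bp from the second, so it lay nearer to the same element as the replicate 1 summit. The pooled summit, at 46 and 52 bp, lay between them. Within 50 bp of a summit, TGATAAG was found at 8.81% of nuclear optimal entries and 2.97% of nuclear pooled ones, and TGTTTAC at 4.17% and 1.31%. Between both elements the sequence holds an unbroken run of 12 C. The 101 bp around the dod-3 summit were 48.5% G and C, near the median of 46.5% for optimal summits.

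The gene dod-6 (T20G5.7, chrIII:10197716-10198352, plus strand) is 637 bp long. Its pooled and optimal entry, chrIII:10196769-10197188, had a signal of 102.7 and rank 1040. Replicate 1 gave a signal of 61.5 at rank 949 and replicate 2 a signal of 40.0 at rank 1590. The replicate 2 rank was below the 1489 highest of its list, so of the 2 genes with an optimal entry only dod-3 was within that number in both replicates. The larger replicate rank was 1.68 times the smaller at dod-6 and 1.30 times at dod-3, where the median over optimal entries was 1.68. The dod-6 ranks were therefore about as unlike as those of a typical optimal entry. Among nuclear optimal entries, 68.8% were within the 1489 highest in both replicates.

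The dod-6 entry lay farther from its gene than that of dod-3. Its summit was 737 bp upstream of the gene start in the pooled list, 739 bp in replicate 1 and 688 bp in replicate 2. This position is inside a pseudogene on the opposite strand, WBGene00194683, whose own start is 101 bp from the summit. The dod-6 start was still the nearest start of a protein-coding gene, as the next gene, epac-1, ended 1574 bp away. In the printed sequence GTAAATA lies 731 to 725 bp before the dod-6 start, with its middle 9 bp from the pooled summit and 11 bp from that of replicate 1. The element CTTATCA lies 662 to 656 bp before the start, 29 bp from the replicate 2 summit and 78 bp from the pooled one. TATTTAC was found within 50 bp of 1.23% of nuclear optimal summits and 2.30% of nuclear pooled ones. The 101 bp around the dod-6 summit were 27.7% G and C, under the lower quartile of 39.6% for optimal summits.

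**Figure D2:**
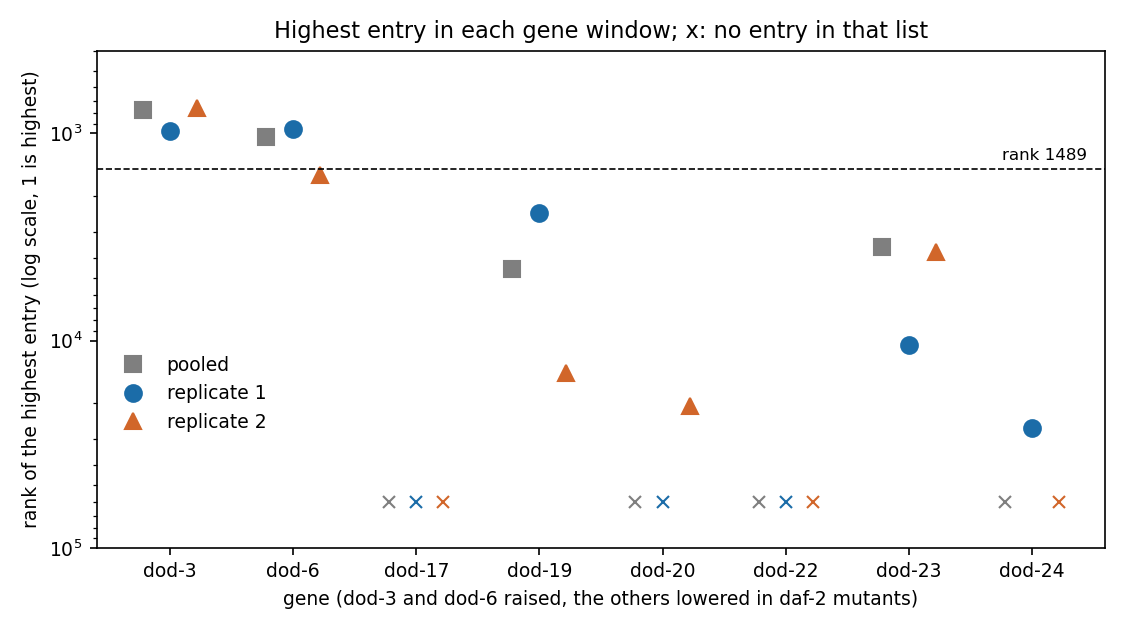
Rank of the highest entry in the window of each gene, on a log scale with high signal at the top. Squares are the pooled list, circles replicate 1 and triangles replicate 2, crosses mark lists with no entry, and the dashed line is rank 1489, the size of the optimal list. The points of dod-3 and dod-6 run from 752 to 1590, and those of the other genes lie below.

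The lowered genes with a pooled entry had signals under the optimal threshold. The gene dod-23 (F49E12.2, chrII:8398161-8399164, minus strand) had a pooled signal of 55.8 at rank 3532, which is 66.2% of the lowest optimal signal, 84.3. Its rank was 10481 in replicate 1, with a signal of 23.6, and 3736 in replicate 2, with a signal of 28.1. The pooled rank was thus close to that of replicate 2, and replicate 1 was far lower. The summits were 952 bp upstream of the gene start in the pooled list, 938 bp in replicate 2 and 874 bp in replicate 1. The printed dod-23 sequence holds TGATAAG from 900 to 894 bp before the start, 41 bp from the replicate 2 summit, 23 bp from that of replicate 1 and 55 bp from the pooled one. The pooled entry also overlaps the end of the next gene, skpo-1, which encodes a peroxidase and ends 183 bp from the summit. In the pooled list dod-23 had 2 further entries, at ranks 14364 and 23771, with summits 102 and 302 bp upstream.

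At dod-19 (ZK6.10, chrV:411782-414759, minus strand) the highest pooled entry was not at the promoter of the longest transcript. Its summit lay in a coding exon, 2194 bp after the gene start and 478 bp from the start of a shorter transcript. The pooled signal was 50.7 at rank 4497, 60.1% of the lowest optimal signal. Replicate 1 placed this entry at rank 2413 with a signal of 40.6, and replicate 2 placed it at rank 15048. The highest entry of replicate 2 was elsewhere, 1085 bp upstream, at rank 14363. The exon entry was thus high in replicate 1 alone. A second place, at the gene start, was listed at rank 21397 in the pooled list and 5313 in replicate 1, and 0 entries of replicate 2 had their summit there. Upstream, dod-19 holds CTTATCA 81 to 75 bp before the start. The printed exon sequence holds none of the motifs. RefSeq gives the dod-19 isoforms differing product names, among them a GH131_N and an IgGFc_binding domain protein. Within the window of dod-19, 94.2% of 31-base words occurred once in the genome, the lowest share of the 8 genes, where dod-6 and dod-23 had 100%.

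The deposited −log10 q-value rose with the signal among the members' entries of each list, apart from ties. It therefore gave the 4 genes the same order, apart from a tie, and is not a second measure. It was 3.37 for dod-3 and dod-6 in the pooled list, the highest value there, which 1173 entries share. It was 0.842 for the highest entry of dod-23 and 0.600 for that of dod-19.

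The other lowered genes had an entry in 1 replicate or in none. At dod-20 (B0554.6, chrV:422433-424177, plus strand) replicate 2 listed an entry at rank 20778 with a signal of 14.2, and its summit was 27 bp after the gene start. The lowest signal in that list was 13.6. At dod-24 (C32H11.12, chrIV:12940106-12941354, minus strand) replicate 1 listed an entry in a coding exon at rank 26433 with a signal of 15.1, where the lowest signal of the list was 14.5. Both values are thus near the floor of their lists. For dod-17 (K10D11.1, chrIV:12976303-12978343, plus strand) and dod-22 (F55G11.5, chrIV:12965374-12967392, plus strand) no entry was listed, which does not show that signal was absent. The lowest signal in the pooled list was 21.1, and why these 2 genes were not listed was not tested. In their windows 97.7% and 97.9% of 31-base words occurred once in the genome.

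The genes dod-24, dod-22 and dod-17 lie on chromosome IV within 38.2 kb (chrIV:12940106-12978343), an interval that overlaps 11 protein-coding genes. The pooled list had 0 summits in it, where windows of this length on the chromosome held a mean of 11.9, and 5 of 457 such windows held 0. The replicate 1 list had 1, the dod-24 entry above, against a mean of 11.2. The replicate 2 list had 0, against a mean of 8.48. The optimal list had 0 as well, which 312 of the 457 windows shared. In this interval 98.5% of 31-base words occurred once in the genome. On its dod-24 side the next pooled summit was 3535 bp beyond the end of dod-24, with a signal of 77.6 at rank 1729. That summit lay 167 bp upstream of dod-21, a gene of the same name series that is not among the 8, and it is named here after its value was seen. Its rank was 2018 in replicate 1 and 1759 in replicate 2. On the other side the next pooled summit was 188 bp past the end of dod-17, at rank 17290, and replicate 1 listed one there at rank 7023. The empty stretch between both pooled summits was 42.0 kb long.

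**Figure D3:**
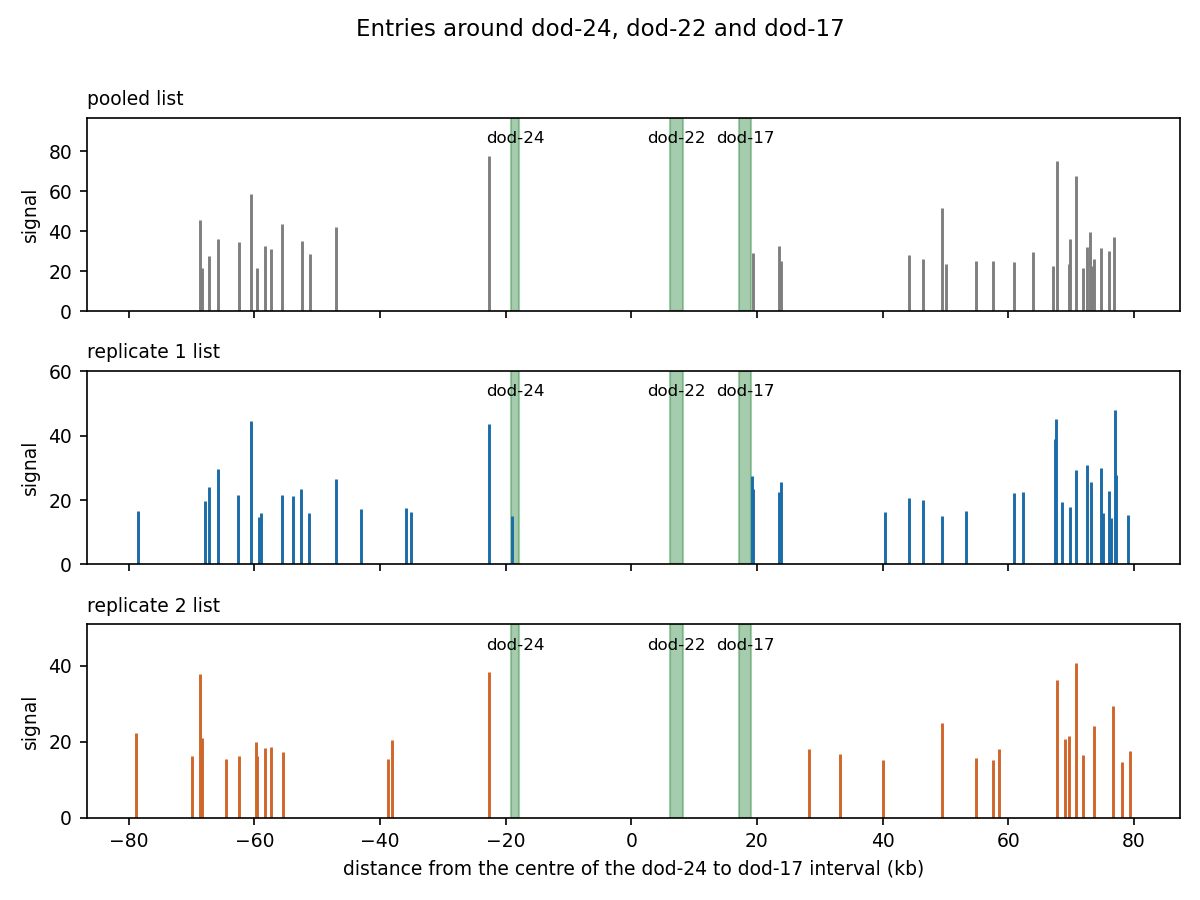
Signal of each entry by distance in kb from the centre of the interval from dod-24 to dod-17, in the pooled list and in both replicate lists, each on its own signal scale. Vertical lines are entries and green bands the 3 genes. No pooled line falls between the bands, and the pooled line just left of dod-24 has a signal of 77.6.

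The pair dod-19 and dod-20 lies on chromosome V within 12.4 kb (chrV:411782-424177), and there the pooled list held 4 summits, against a mean of 2.97 per window of this length. Of these 3 were the dod-19 entries. The fourth was 4263 bp upstream of dod-20, at rank 9846, outside its window. The nearest optimal summit was 88534 bp from the dod-20 start. This neighbourhood was thus not as empty as that of dod-24, dod-22 and dod-17.

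In the 1000 bp upstream of the gene start TGATAAG was present in 7 of the 8 genes, all but dod-17, against 20.5% of 19972 protein-coding genes with a full window. The element was first described in promoters of genes such as these, so this count is not independent of how the genes became known. Both raised genes and 5 of the 6 lowered ones held it. The gene dod-20, with no pooled entry, held 3 copies, which began 325, 138 and 90 bp before the start, and the last 2 are in the printed sequence. One form or the other of the DAF-16 binding element was upstream of 4 genes, dod-3, dod-6, dod-17 and dod-22, where 31.1% of all genes held one. TGTTTAC alone was upstream of dod-3 and dod-22, with a share of 13.4% of all genes, and TATTTAC upstream of dod-6 and dod-17, with 20.7%. Both kinds of element were upstream of dod-3, dod-6 and dod-22, as they were for 6.78% of all genes. This count includes TGATAAG, so it too is not independent of how the genes became known. Of the 7 members with TGATAAG 3 held both kinds, where 1354 of the 4103 genes with TGATAAG did. In the printed dod-22 sequence TGATAAG begins 515 bp and GTAAACA 396 bp before the start, and no list had an entry there. The core GATAA, which also lies inside each TGATAAG, was upstream of all 8 genes and of 92.0% of all genes. Within 50 bp of the highest pooled summit, dod-3 and dod-6 had a match to one of the 7-base elements and dod-19 and dod-23 had none.

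**Figure D4:**
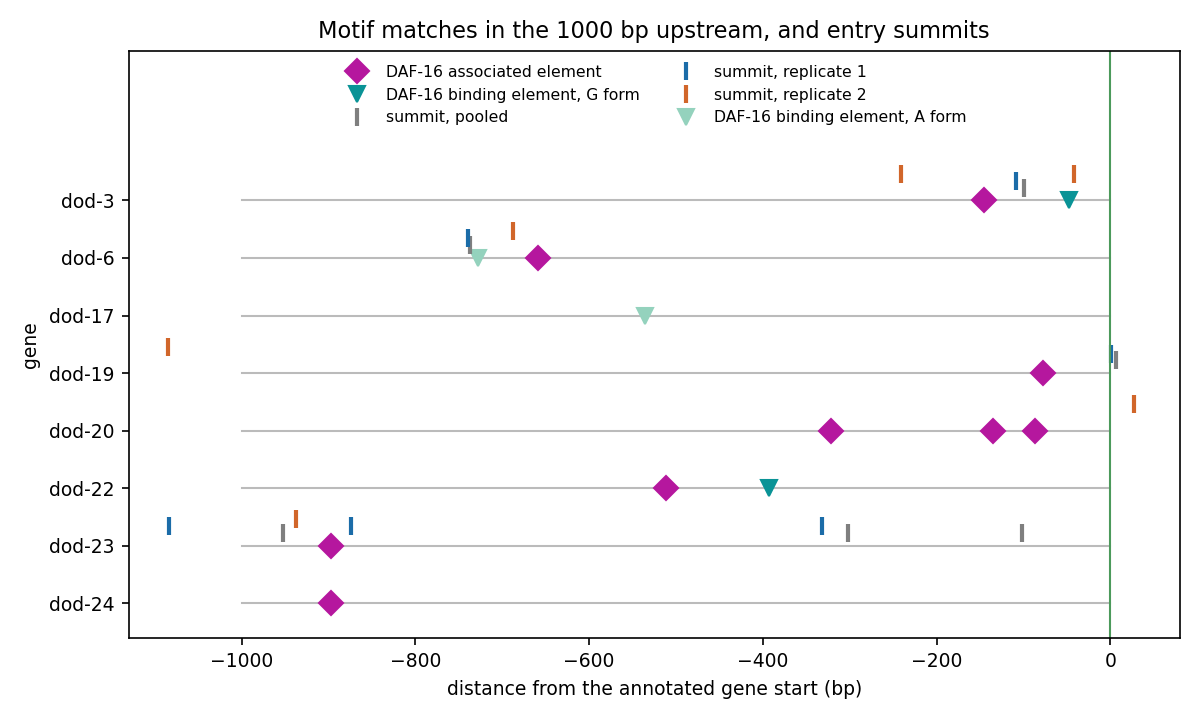
Motif matches on either strand in the 1000 bp upstream of each dod gene, by distance from the annotated gene start in bp. Diamonds are the DAF-16 associated element, triangles the 2 forms of the DAF-16 binding element, and short vertical marks the entry summits of the pooled and replicate lists. Motifs and the highest summits lie close together at dod-3, dod-6 and dod-23. At dod-19 lower summits at the gene start lie 85 bp (pooled) and 79 bp (replicate 1) from its diamond. The genes dod-20 with 3 diamonds, dod-22 and dod-24 have no upstream summit.

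The dod genes were set beside other known DAF-16 targets under the same window rule. Of 24 genes listed as raised in daf-2 mutants, 22 matched 1 gene each, and of these 2 held an optimal entry and 12 a pooled one. These are 9.09% and 54.5% of the 22, against 8.24% and 68.9% of all genes. The optimal share was thus near the background. The pooled share was lower than that of all genes, but the set is small and chosen, and the difference was not tested. Those with an optimal entry were icl-1, a glyoxylate cycle gene, whose signal was 122.0 at rank 703, and pck-2, which encodes a phosphoenolpyruvate carboxykinase and had a signal of 89.3 at rank 1345. In the single replicates icl-1 ranked 736 and 450 and pck-2 1830 and 1625. The dod-3 and dod-6 ranks of 771 and 1040 lay between those of icl-1 and pck-2. For 6 of the 22 genes all lists were empty, where 82.2% of all genes had an entry in at least 1 list. Of 9 genes listed as lowered, 8 matched, and 3 of these held an optimal entry and 8 a pooled one, which are 37.5% and 100% of the 8 against the same 8.24% and 68.9% of all genes. The genes with an optimal entry were the aquaporin gene aqp-1 with a signal of 146.5 at rank 479, the yolk protein gene vit-2 with 130.7 at rank 629, and ins-7, which encodes an insulin-like peptide, with 89.3 at rank 1347. The lowered dod genes had fewer entries than these 8 genes, with 0 of 6 in the optimal and 2 of 6 in the pooled list. Neither set is large and the difference was not tested. The 0 of 6 is near the 8.24% of all genes, and the lists of other targets were chosen with earlier results of these data known. The genes next to dod-3 in the order of highest pooled entries were Y55F3BR.2 at rank 770 and unc-18 and stn-2, which share an entry, at rank 772. Those next to dod-6 were ace-2 and Y44E3A.7, which share rank 1039, and snr-1, snx-13 and Y116A8C.43, which share rank 1041. In replicates 1 and 2 the highest entries of ace-2 and Y44E3A.7 ranked 1139 and 1036, and those of unc-18 and stn-2 1095 and 902. The ranks of the other neighbours were less alike. They were 475 and 1010 for Y55F3BR.2, 477 and 1484 for snx-13 and Y116A8C.43, and 477 and 21720 for snr-1.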

How the data were processed

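Anti-GFP immunoprecipitates of 2 biological replicates were sequenced, and the authors deposited peak lists in a narrowPeak format on ce10 and ce11. Per the deposited file notes, each replicate list derives from the alignment of that replicate and from 1 further file, from which the control-normalized tracks also derive, and the optimal list derives from the pooled and both replicate lists. The names of the aligner and the peak caller were not given in the sources used here. Both the signal per peak and the −log10 q-value per peak are the authors' deposited values. The signal was used to rank entries within a list. All 4 ce11 lists were used, and the ce10 lists were not used here. Genes came from Ensembl release 115 on WBcel235, and 7 of the 8 members had the same start and end in RefSeq. No entry lay past a chromosome end of that genome. Python 3.11.15, numpy 2.4.6, pandas 2.3.3 and matplotlib 3.10.9 were used.

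Gene windows ran from 3000 bp upstream to the gene end. Motifs were searched on both strands within 50 bp of summits and in 1000 bp upstream of gene starts. Words of 31 bases were counted on both strands of the whole genome, and the read length was not known. No test was made, since the samples form 1 group. The window and motif searches were checked on simulated data. The named genes are the 8 members, the genes nearest their entries, up to 4 other targets per list with an optimal entry, the genes next to dod-3 and dod-6 by rank, and daf-16 and ges-1. The members and lists were chosen with earlier results of these data known. Listed targets that did not match exactly 1 gene symbol were left out. Alternatives covered the window, the placing of entries, the threshold and each replicate left out.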

Additional observations from a re-analysis of the deposited data

How the results depend on the processing

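The members with an optimal entry numbered 2 in the windows of 1000 and 5000 bp upstream, by overlap of intervals, by the nearest transcript start and with nuclear entries only. With 1 replicate left out, the 1489 highest entries of the other replicate held 1 to 2 members. Without replicate 1 dod-6 was lost, where 8.30% of all genes had an entry among the 1489 highest of replicate 2. Without replicate 2 dod-3 and dod-6 were both held, where 8.27% of all genes had one among those of replicate 1. In the higher-signal 744 entries of the optimal list the number was 0, as dod-3 ranks 771, and in the 3000 highest pooled entries it was 2. The pooled list held 4 members, and 5 with 5000 bp upstream, where dod-20 joined, or by overlap, where dod-17 joined. Shares of all genes under the other windows and thresholds are not given here, so the counts at those settings have no background beside them. Without dod-20 and dod-23, the lowered members with a pooled entry went from 2 to 1, since dod-23 was left out. With nuclear entries only, or with entries that share an interval merged, the pooled ranks of dod-3, dod-6, dod-19 and dod-23 moved by less than the spread between replicates. With 100 bp to each side of the summit, or with the whole entry, dod-23 joined dod-3 and dod-6 as holding a 7-base element. Ranking by column 8 was not run, because that column holds 1 constant value. No paired analysis was possible because the samples form 1 group and no test was made. The lists hold no counts, so what depth limits could not be measured.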
